A study of Mus musculus with 4 samples.

Results

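Single-cell RNA sequencing of mouse adipose tissue was used here to follow the AP-1 transcription factor family, gene by gene, across cell classes, fat depots and genotypes. The members were the 10 genes Fos, Fosb, Fosl1, Fosl2, Jun, Junb, Jund, Batf, Atf3 and Maff, a list found by symbol among the 32290 features of the deposited tables. The study compared subcutaneous (SC) and visceral intraperitoneal (IP) adipose tissue of WT mice (Tie2e-cre, TERT+/+, mTmG) and KO mice (Tie2e-cre, TERTfl/fl, mTmG), which lack telomerase reverse transcriptase where the recombinase has acted. All mice were male, 7 months old and had been on high-fat diet for 5 months. Each of the 4 groups was 1 library from an unstated number of mice, so there was no replicate spread to hold a difference against. No test was possible, no p-value is given, and every interval is a 95% interval that covers counting error only.

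The recombinase is driven by regulatory sequence of Tie2, an endothelial receptor, and Tie2-driven recombinases are also known to act in part of the blood lineage. The mTmG reporter, carried by all groups, switches from membrane Tomato to membrane GFP in recombined cells. The text on library preparation mentions both cells and nuclei as the material loaded, although the tissue was dissociated to cells.

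AP-1 is a dimer of basic leucine zipper (bZIP) proteins. Jun proteins pair with each other or with Fos proteins and bind a short DNA element found in genes of growth, matrix turnover and inflammation, while Batf, Atf3 and Maff are relatives that pair with Jun, Fos or other bZIP proteins. Fos, Fosb, Jun, Junb and Atf3 are immediate early genes, whose transcripts appear quickly after growth factors, stress or tissue handling without new protein synthesis, and heat shock genes are known to respond to handling as well.

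The promoters of 9 of the 10 members were found in the RefSeq table of GRCm38.p6, with 11 transcription starts and a window from 250 bases before to 50 bases after each start. The promoters of Fos, Fosb, Jun and Junb are shown because Fosb, Jun and Junb were found more often in stromal cells with Fos than in those without. Each is written 5′ to 3′ on the strand of its gene, and capitals mark the motifs found by letter search on both strands. These were TGACG (the core of the cAMP response element), TGACATCA (the element through which Jun protein is known to act on its own promoter), GAANNTTC (a pair of heat shock element units) and TATAAA.
Fos, chr12:85473640-85473939, plus strand: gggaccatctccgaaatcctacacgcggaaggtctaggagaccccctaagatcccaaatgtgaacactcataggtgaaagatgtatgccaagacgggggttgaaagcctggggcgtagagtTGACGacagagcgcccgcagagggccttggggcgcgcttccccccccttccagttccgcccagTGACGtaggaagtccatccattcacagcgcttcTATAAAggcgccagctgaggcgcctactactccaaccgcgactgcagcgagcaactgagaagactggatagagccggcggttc
Fosb, chr7:19309996-19310295, minus strand: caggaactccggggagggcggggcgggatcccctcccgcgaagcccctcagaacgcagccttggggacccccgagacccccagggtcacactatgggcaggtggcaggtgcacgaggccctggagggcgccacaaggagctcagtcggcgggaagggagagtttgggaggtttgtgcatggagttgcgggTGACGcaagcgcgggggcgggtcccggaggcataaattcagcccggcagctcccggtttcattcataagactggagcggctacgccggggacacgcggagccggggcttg
Jun, chr4:95052173-95052472, minus strand: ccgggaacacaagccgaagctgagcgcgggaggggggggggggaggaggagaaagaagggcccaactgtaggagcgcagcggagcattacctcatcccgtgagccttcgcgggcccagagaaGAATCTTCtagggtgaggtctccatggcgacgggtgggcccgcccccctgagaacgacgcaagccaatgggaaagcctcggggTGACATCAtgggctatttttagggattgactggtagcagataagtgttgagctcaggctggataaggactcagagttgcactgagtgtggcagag
Junb, chr8:84978699-84978998, minus strand: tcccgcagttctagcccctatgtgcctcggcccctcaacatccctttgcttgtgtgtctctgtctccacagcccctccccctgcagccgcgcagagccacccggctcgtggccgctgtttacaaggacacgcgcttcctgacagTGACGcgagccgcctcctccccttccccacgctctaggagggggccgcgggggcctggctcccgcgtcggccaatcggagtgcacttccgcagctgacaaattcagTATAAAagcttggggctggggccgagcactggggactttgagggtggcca
In Fos, TGACG began at -129 and -66 and TATAAA at -33, counted from the start. In Fosb, TGACG began at -60. In Jun, the letters GAATCTTC began at -128 and TGACATCA at -45. In Junb, TGACG began at -106 and TATAAA at 1. Of all 32851 promoters in the table, 20.8% held TGACG or its complement, 3.62% TGACATCA or its complement, 7.86% GAANNTTC and 13.6% TATAAA, so each of these motifs also occurs before many other genes. The AP-1 element itself (TGACTCA or its complement) was in 5.20% of promoters and in no member's window, and the CArG box, to which serum response factor binds, was in 1.63% and in no member's window. Elements more than 250 bases before a start lie outside the window and could not be found, so these absences do not cover them. The full cAMP response element, TGACGTCA, was in 1.79% and in 1 of the Maff windows, where it overlaps TGACG.

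The genes lie on GRCm38 chromosomes 12 (Fos, 85473890 to 85477273, and Batf, 85686669 to 85709087), 7 (Fosb, 19302696 to 19310051), 19 (Fosl1, 5447547 to 5455946), 5 (Fosl2, 32135801 to 32157842), 4 (Jun, 95049034 to 95052222), 8 (Junb, 84974484 to 84978718, and Jund, 70698949 to 70700616), 1 (Atf3, 191170296 to 191218039) and 15 (Maff, 79346621 to 79359076). All 10 are protein coding in GENCODE, and Jun, Junb and Jund are annotated with a single exon in their longest transcript. Genes on the opposite strand overlap Jun (Junos, 531 UMIs in the kept cells), Junb (Prdx2, 8019 UMIs), Fosl1 (Ccdc85b, 2047 UMIs) and Jund (Gm11175, 10 UMIs). Whether the counting used strand is not given in the sources used here, so the values of these 4 members are uncertain to that extent.

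The libraries held 700 to 2115 barcodes and 10015201 to 15533961 UMIs (unique molecular identifiers, each standing for 1 captured transcript). After filtering, 4025 cells were kept with a median of 6909 to 13054 UMIs per library. Tert had 3, 2, 8 and 9 UMIs in WT SC, KO SC, WT IP and KO IP, too few to check the genotypes. KO SC and WT IP shared 93 barcodes. Of the 92 that passed the filters, 91 had fewer than 10% as many UMIs in KO SC as in WT IP, with a median of 1.71%, and these KO SC copies were left out. Without that step, KO SC would have had 201 rather than 124 stromal cells.

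Each cell was given a class by the number of its 8 marker genes with a UMI, and 3717 cells had 1 class. In the order WT SC, KO SC, WT IP and KO IP, adipose stromal cell-like (ASC-like) cells numbered 105, 124, 286 and 218, and T cell-like cells 458, 1167, 113 and 124. B cell-like cells numbered 297 and 464 in SC and 19 and 24 in IP. NK cell-like cells reached 20 in WT SC (22) and WT IP (41), macrophage-like cells in WT IP (84) and KO IP (27), and neutrophil-like cells in KO IP (21). Endothelial cell-like (EC-like) cells, in which the deletion is directed, numbered only 3, 2, 16 and 5, so no genotype ratio was formed for them. Levels are given as UMIs per 1000000 UMIs of a class in a library (CPM). The summed level of the 8 ASC markers was 41054 to 47723 CPM in ASC-like cells and 28.1 to 59.8 CPM in T cell-like cells, which gives the scale of free stromal RNA in the T cell-like counts.

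Fos, the founding member and a partner of Jun proteins, was highest in ASC-like cells in 3 of 4 libraries among the classes with at least 20 cells. In the order WT SC, KO SC, WT IP, KO IP, which is kept for all series of 4 values, its level there was 1769 CPM (1709 to 1832), 2184 (2113 to 2257), 1773 (1739.6 to 1807) and 1375 (1341 to 1410.0). T cell-like cells held 351, 354, 312 and 402 CPM, and B cell-like cells 261 and 313 CPM in WT SC and KO SC. In KO IP, neutrophil-like cells had 1937 CPM (1683 to 2218) and macrophage-like cells 1574 (1437 to 1720.4), and these intervals overlap, with ASC-like cells below both. Classes with fewer cells were not ranked, and of these the 5 EC-like and 6 mural cell-like cells of KO IP had larger shares, with 449 of 81436 and 496 of 121620 UMIs. In WT IP macrophage-like cells were at 789.9 CPM (744 to 838), under the ASC-like level. Fosb, a close relative with the same partners, had 1020.3, 1031, 888 and 695 CPM in ASC-like cells. It stood at 137 and 136 CPM in T cell-like cells of SC and at 350.3 and 354 CPM in those of IP.

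Fosl1 and Fosl2, the Fos-related antigens, lack the strong activation domain of Fos. Fosl1 was nearly restricted to stroma and myeloid cells. Its level in ASC-like cells was 47.7, 62.4, 18.0 and 12.5 CPM, against 1.36 to 3.20 CPM in T cell-like cells. In B cell-like cells it had 0 UMIs in WT SC, KO SC and KO IP, with exact upper bounds of 2.03, 1.54 and 19.1 CPM. Fosl2 differed in that T cell-like cells were level with stroma in SC and above it in IP. T cell-like cells had 197, 249.997, 277 and 305 CPM, against 195, 259.9, 122 and 143 CPM in ASC-like cells. B cell-like cells had only 9.36 and 10.9 CPM of Fosl2 in WT SC and KO SC, and neutrophil-like cells of KO IP had 1001 CPM (821 to 1209), above every other class of that library with at least 20 cells.

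Jun, the main activating partner of Fos, was highest in ASC-like cells of every library among the same classes, with 1149 CPM (1100.5 to 1199), 1199 (1146 to 1253), 1587 (1555 to 1619) and 1015 (985 to 1045). Macrophage-like cells of IP followed with 374 and 563 CPM. The few EC-like cells of IP had larger shares of Jun than ASC-like cells, with 573 of 280102 UMIs in WT and 164 of 81436 in KO. Lymphocytes were lower and less even: T cell-like cells had 217, 94.4, 133 and 163 CPM, and B cell-like cells 349 CPM in WT SC against 109.8 in KO SC. Neutrophil-like cells of KO IP, high in Fos, had only 7 Jun UMIs (64.9 CPM). Junb and Jund, which are weaker activators and oppose Jun at some genes, were found in all classes and varied less between them than the other members. Junb ranged from 1112 to 2614 CPM over all classes and libraries with at least 20 cells. Jund ranged from 708 to 1436 CPM in lymphocytes and from 864 to 1503 CPM in ASC-like cells.

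Batf, a bZIP factor without an activation domain that is needed for several T cell programmes, showed the opposite distribution. It had 81.7, 51.3, 84.4 and 91.5 CPM in T cell-like cells and 0.548, 0, 4.29 and 1.13 CPM in ASC-like cells, which rested on 1, 0, 26 and 5 UMIs. Macrophage-like cells of WT IP had 96.3 CPM (80.6 to 114) and those of KO IP 19.5 (7.16 to 42.5). With every cell thinned to 3000 UMIs, a Batf UMI was seen in 17.9%, 10.96%, 24.3% and 19.7% of T cell-like cells and in at most 2.81% of ASC-like cells in the same libraries. Without thinning these shares were 36.5%, 24.3%, 38.1% and 33.9% in T cell-like cells and at most 4.196% in ASC-like cells.

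Atf3, a stress-induced member that often represses, was highest in stroma and myeloid cells among the classes with at least 20 cells. ASC-like cells had 313 CPM (288 to 339.6), 535 (499.7 to 571), 299.9 (286 to 314) and 217 (204 to 231), while T cell-like cells had 16.2 to 26.7 CPM. Macrophage-like cells of IP were higher than ASC-like cells of the same library, with 480.0 CPM in WT and 667 in KO. B cell-like cells had 12.1 and 5.01 CPM in WT SC and KO SC but 82.8 (47.3 to 134) in KO IP. The few EC-like cells of WT IP, not ranked, held 220 of 280102 UMIs. Maff, a small Maf protein with no activation domain, had 67.4, 119.9, 47.2 and 49.4 CPM in ASC-like cells and 18.3 to 31.0 CPM in T cell-like cells.

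**Figure D1:**
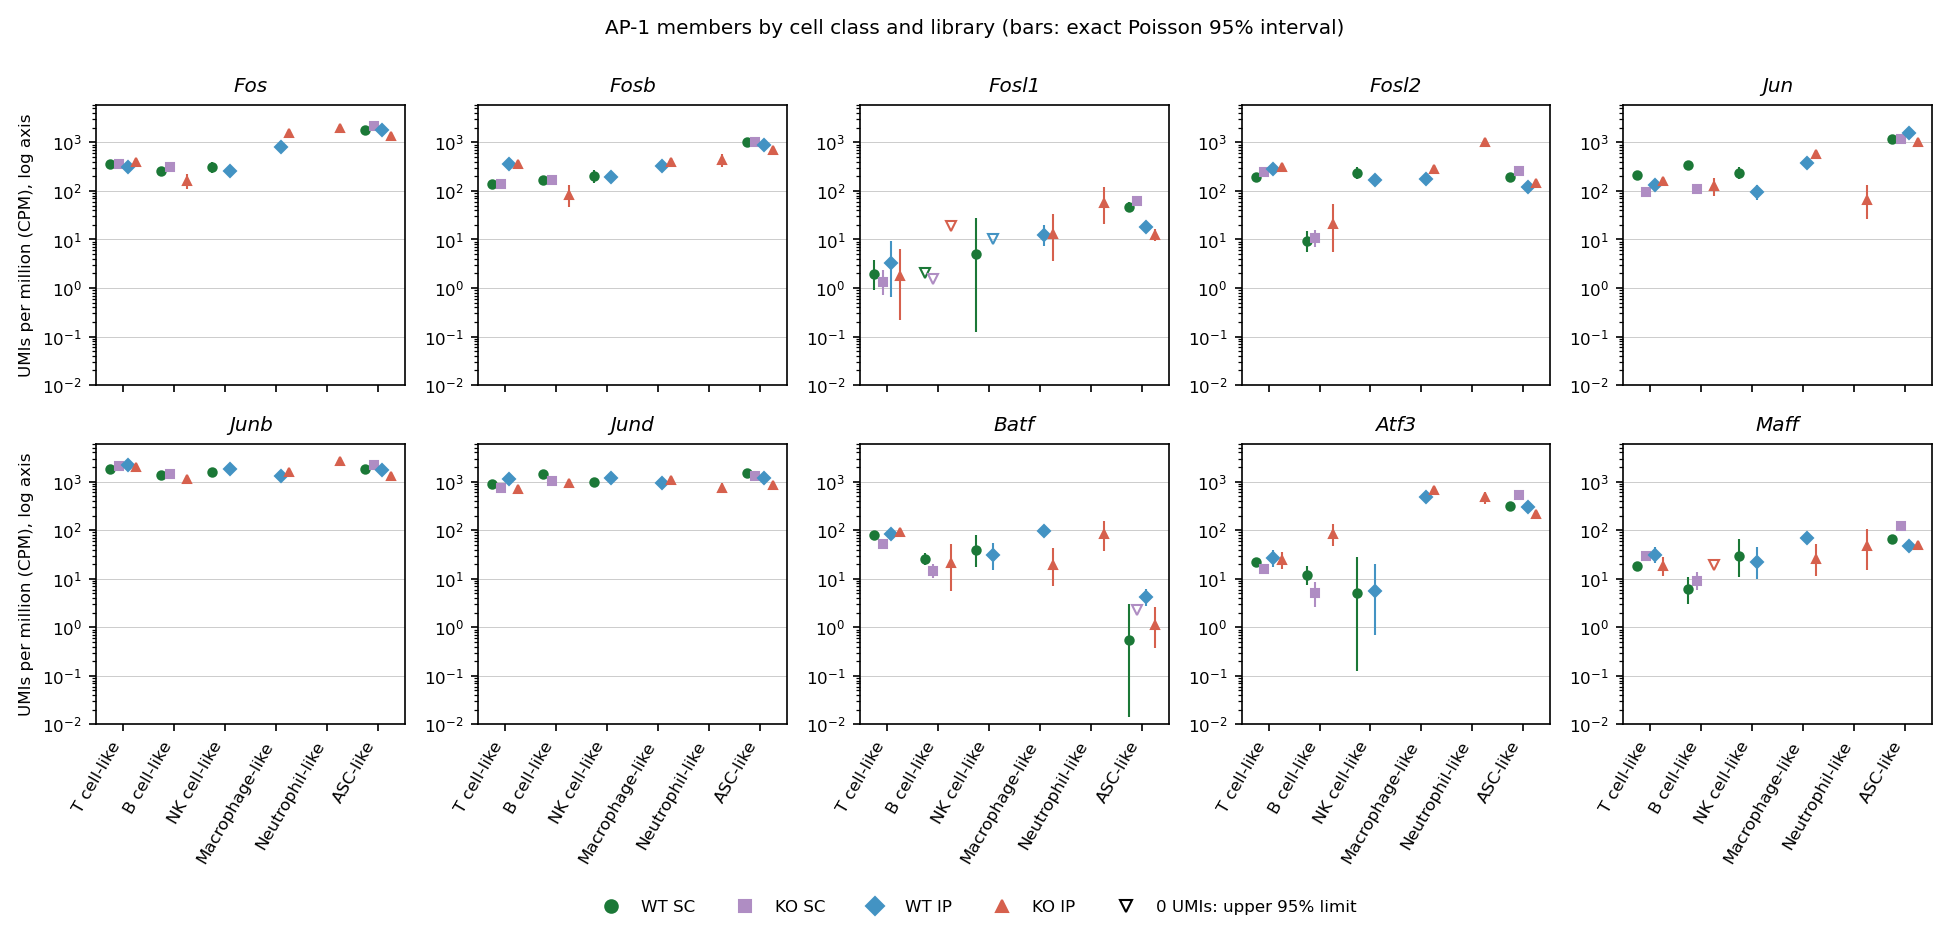
Level of each member in CPM on a log axis, by cell class and library, with 1 panel per gene and exact Poisson 95% intervals as bars. Fos, Fosb, Jun and Atf3 sit higher in ASC-like than in T cell-like and B cell-like cells in every library. Batf sits higher in T cell-like than in ASC-like cells. Junb and Jund vary less between classes than the other members.

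Over the 12 sums of class and library with at least 30 cells, the levels of Fos and Fosl1 (Pearson r of log2(CPM + 10) 0.94), Atf3 (0.93), Jun (0.92) and Fosb (0.92) ran together. Fos and Junb did not (-0.01), and Jun and Batf ran in opposite directions (-0.74). These coefficients describe 12 sums that share 4 libraries and mainly separate stroma from lymphocytes. Among 8362 other genes, those most like Fos were the metallothionein gene Mt2, Rai14 and Phldb1 (each 0.99), those most like Jun were Arl1, Sumf1 and Mocs2 (each 0.97), and those most like Atf3 were Cask, Adam15 and Sestd1 (each 0.98). For Junb the nearest were Il1rap (0.92), Rnf19a (0.86) and Bcor (0.85), and for Jund they were Aacs (0.83), Fam126a (0.80) and Cxxc5 (0.76).

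Fosb, Jun, Junb and Atf3 were each found more often in ASC-like cells with Fos than in those without. After thinning, a Fos UMI was present in 67.9%, 78.7%, 69.1% and 70% of ASC-like cells. Unthinned shares were 66.7%, 79.8%, 75.9% and 75.2%. Jun was present in 85.5%, 74.1%, 92.4% and 87.3% of the ASC-like cells with Fos and in 46.2%, 56.5%, 41.6% and 40.7% of those without. Fosb was present in 80%, 83.5%, 82.6% and 78.6% of those with Fos and in 23.1%, 52.2%, 22.1% and 31.5% of those without, and Junb in 92.7%, 90.6%, 93.0% and 88.9% against 53.8%, 52.2%, 36.4% and 48.1%. Atf3 was present in 49.1%, 58.8%, 49.4% and 43.7% of those with Fos and in 3.85%, 34.8%, 5.19% and 7.41% of those without. For Fosb, Jun, Junb and Atf3 alike the gap was narrowest in KO SC, though for Junb it was hardly narrower than in WT SC. Only 23 ASC-like cells of KO SC had no Fos UMI after thinning. Egr1, another immediate early gene that was chosen for this check after values had been seen, was present in 78.2%, 89.4%, 90.1% and 92.9% of those with Fos and in 42.3%, 52.2%, 27.3% and 53.7% of those without. The rank correlation of Fos and Jun over ASC-like cells was 0.60, 0.54, 0.72 and 0.61, and over T cell-like cells 0.13, 0.05, 0.22 and 0.46. That of Fos and Fosl2 over ASC-like cells was only -0.14, 0.07 and 0.13 in KO SC, WT IP and KO IP. The 10 members together also went with cell quality in ASC-like cells after thinning. Their rank correlation with the UMIs of the cell before thinning was 0.36, 0.19, 0.26 and 0.27. With mitochondrial percent it was -0.14, -0.42, -0.41 and -0.31. In lymphocytes the correlation of the members with UMIs had the other sign. It was -0.23, -0.17, -0.26 and -0.13 in T cell-like cells, and -0.21 and -0.17 in B cell-like cells of WT SC and KO SC. The cells of a library share handling and free RNA, so these are descriptions.

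Fos RNA was spread unevenly over stromal cells. At 3000 UMIs per cell, 32.1%, 21.3%, 30.9% and 30% of ASC-like cells had no Fos UMI, while the highest cell had 33, 73, 34 and 30. The tenth of cells with most Fos held 46.9%, 45.2%, 39.9% and 38.1% of all Fos UMIs. Fos also differed with the depth of the cell. In WT SC, the 24 ASC-like cells under 3000 UMIs had 319.5 CPM, the 19 in the middle range 1342 CPM and the 62 with at least 10000 UMIs 1833 CPM. In KO SC the level did not follow depth, with 311 CPM in 16 cells, 3043 CPM (2816 to 3283) in 33 and 2083 CPM in 75. In IP the lower and middle ranges were alike, with 1236 and 1142 CPM in WT and 780.3 and 773 in KO, against 1798 and 1405 CPM in the deepest cells. The deepest cells supplied 85.0% to 96.0% of all ASC-like UMIs, so the sums above mostly describe them.

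Whether deletion of Tert in the Tie2 lineage went with altered AP-1 expression in other cells was asked by dividing the level in KO by that in WT for classes with at least 30 cells in both libraries. Values are log2 ratios after adding 0.5 UMI, for genes with at least 20 UMIs in the pair. In the absence of a test, 1.5-fold served as the call. The same libraries also enter the depot comparison given later, so the 2 sets of ratios are not independent.

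In SC, ASC-like cells of KO had more Atf3, Maff, Fosl2, Fos and Junb than those of WT and less Jund. Atf3 went from 313 to 535 CPM (0.77, interval 0.62 to 0.93) and Maff from 67.4 to 119.9 CPM (0.83, 0.50 to 1.17), and these were the 2 of 9 members compared that passed 1.5-fold. Of all 9769 genes compared, 18.3% passed, 9.53% upward and 8.81% downward. Fosl2 was at 0.41 (0.21 to 0.62), Fos at 0.30 (0.23 to 0.37) and Junb at 0.30 (0.23 to 0.37). Jund was at -0.20 (-0.29 to -0.12). Fosb (0.02), Jun (0.06) and Fosl1 (0.39, -0.04 to 0.82) had intervals that included no change. The member median was 0.30 beside 0.02 for all genes. The Fos ratio was 0.64 when each cell was weighted equally and 0.18 among cells with at least 10000 UMIs. With equal weights Atf3 was at 1.19 and Jund at -0.07.

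In IP, ASC-like cells of KO had less of 7 well-counted members. Jun was at 1015 CPM in KO and 1587 in WT (-0.65, -0.70 to -0.59), and this was 1 of 2 of the 10 members past 1.5-fold, the other being Batf with 5 and 26 UMIs (-1.81, -3.66 to -0.52). Of all 12319 genes compared, 16.6% passed, 9.94% upward and 6.7% downward. Jund was at -0.47 (-0.53 to -0.41), Atf3 at -0.46 (-0.58 to -0.35), Junb at -0.45 (-0.50 to -0.41), Fos at -0.37 (-0.41 to -0.32), Fosb at -0.35 (-0.42 to -0.29) and Fosl1 at -0.52 (-1.03 to -0.05). Fosl2 alone lay above no change by more than its counting interval (0.23, 0.08 to 0.39), but it was at 0.01 with cells weighted equally and at 0.49 with cells thinned to 3000 UMIs. Maff was at 0.06. The member median was -0.46 beside 0.06 for all genes. Summed over the 10 members, ASC-like cells held 7861, 8903, 7716 and 5671 CPM, so that KO was the higher genotype in SC and the lower one in IP. Atf3 stood at -0.21 when cells with markers of 2 classes were kept. In KO IP these included 32 cells with markers of both ASC and mesothelial cells, with a median of 51825 UMIs, an Atf3 level of 1321 CPM (1265 to 1380.0) and a Fos level of 2377 CPM.

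In lymphocytes of SC the main difference lay in Jun. T cell-like cells of KO had 94.4 CPM (88.4 to 101) against 217 in WT (204 to 231), a ratio of -1.20 (-1.33 to -1.07) or 0.434 times the WT level, and B cell-like cells had 109.8 CPM (96.9 to 124) against 349 (322 to 377), a ratio of -1.67 (-1.88 to -1.46) or 0.315 times. Batf was also lower in T cell-like cells of KO (51.3 against 81.7 CPM, -0.67, -0.87 to -0.47), and Maff was higher (29.0 against 18.3 CPM, 0.66, 0.31 to 1.03). These were the 3 of 10 members past 1.5-fold in T cell-like cells, where 18.8% of 11314 genes passed, 4.55% upward and 14.2% downward. The ratio of Maff was 0.22 with cells thinned to 3000 UMIs and that of Batf -0.53 with median-of-ratios scaling, both short of 1.5-fold. In B cell-like cells, 3 of 9 members passed, all downward, where 15.6% of 8851 genes passed, 5.51% upward and 10.1% downward. The others were Batf (-0.82, -1.4997 to -0.16) and Atf3, which had only 12 and 22 UMIs (-1.25, -2.42 to -0.20). The member median was -0.13 in T cell-like cells and 0.01 in B cell-like cells, beside -0.14 and -0.07 for all genes.

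Over the whole classes, Fos and Fosb did not share the difference in Jun, although Fos differed between T cell subsets, as given later. Among T cell-like cells of SC they were at 0.01 (-0.07 to 0.10) and -0.01 (-0.15 to 0.13), and in B cell-like cells Fos was at 0.27 (0.10 to 0.44) and Fosb at 0.01 (-0.21 to 0.23). Jund was lower in KO in both, at -0.26 (-0.31 to -0.20) in T cell-like and -0.50 (-0.58 to -0.42) in B cell-like cells. Junb, Fosl2 and Atf3 in T cell-like cells were at 0.22 (0.18 to 0.25), 0.34 (0.23 to 0.45) and -0.46 (-0.82 to -0.08). Among cells with at least 10000 UMIs, Junb was at 0.02, Fosl2 at 0.17, Atf3 at -2.52 and Jund at -0.78.

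T cell-like cells of IP had Jun at 163 CPM in KO and 133 CPM in WT (0.28, -0.05 to 0.62). The lower Jun of KO was therefore not seen over this class as a whole. In its cells without a Hspa1a UMI, a split described below, the ratio was -0.26 (-0.70 to 0.18). Jund was at 708 and 1112 CPM (-0.65, -0.79 to -0.52) and Maff at 21 and 29 UMIs (-0.72, -1.61 to 0.13), the 2 of 9 members past 1.5-fold. Here 26.3% of 7922 genes passed, 19.4% upward and 6.92% downward. Fos was at 0.37 (0.15 to 0.59) and Junb at -0.17 (-0.26 to -0.08). Jund was the member whose ratio was below 0 in all 5 class and depot comparisons, from -0.20 to -0.65, each beyond its counting interval, although that in T cell-like cells of IP was only -0.12 among cells with at least 10000 UMIs. The 5 ratios come from only 4 libraries. In these comparisons 17.6% to 32.6% of all genes were beyond counting error, in either direction. In T cell-like cells of SC the median of all genes was itself -0.14, beside -0.26 for Jund. How many other genes were below 0 in all 5 is not given here.

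**Figure D2:**
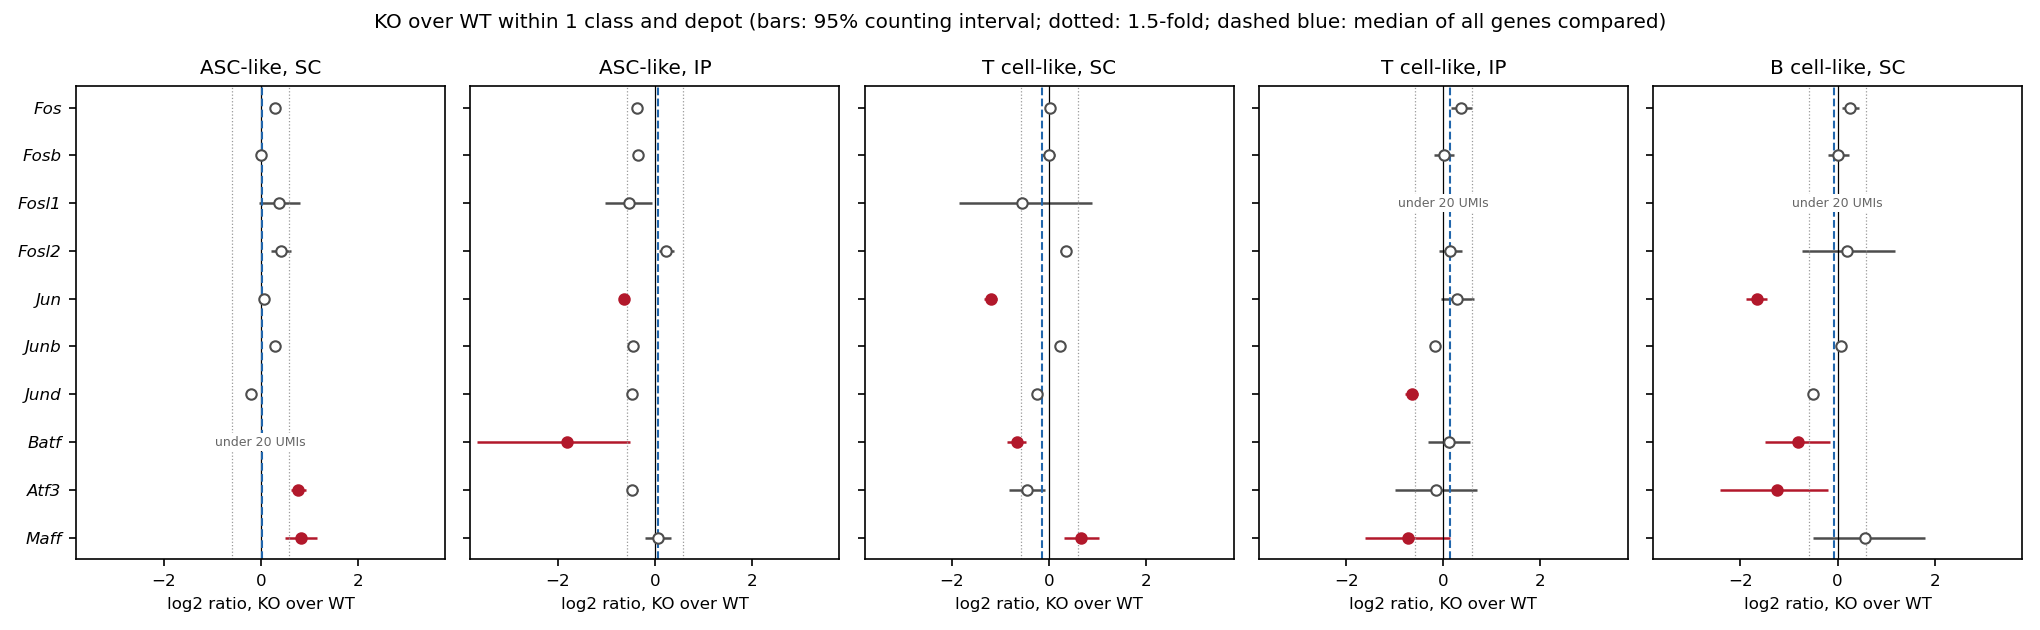
Log2 ratio of KO over WT for each member in the 5 classes and depots compared, with 95% counting intervals. Filled red points passed 1.5-fold (dotted lines), open grey points did not, and the dashed blue line is the median of all genes. Jun lies far to the left in T cell-like and B cell-like cells of SC, and most members lie left of 0 in ASC-like cells of IP.

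The Jun difference in SC lymphocytes went with heat shock transcripts. Hspa1a, which encodes an inducible Hsp70 and was singled out after values had been seen, stood at 613 CPM in T cell-like cells of WT SC against 26.2, 172 and 128 CPM in the other libraries, and at 953 against 59.3 CPM in B cell-like cells of WT SC and KO SC. Its near-identical neighbour Hspa1b may share reads with it. It was at 475 and 30.01 CPM in T cell-like cells of WT SC and KO SC. In WT SC, T cell-like cells with a Hspa1a UMI (29.5% of them) had 483 CPM of Jun and those without had 102, and the cells with Hspa1a held 67.1% of all Jun UMIs of the class. In KO SC the share of cells with Hspa1a was 9.77%, and Jun was at 144 CPM with and 88.4 without. B cell-like cells had 776 CPM of Jun with and 103 without Hspa1a in WT SC, and 239 and 97.7 CPM in KO SC. Among cells without a Hspa1a UMI, the KO over WT ratio of Jun was -0.21 (-0.40 to -0.02) in T cell-like and -0.08 (-0.41 to 0.26) in B cell-like cells of SC. In T cell-like cells of IP without it the ratio was -0.26 (-0.70 to 0.18). Cells of SC with a Hspa1a UMI had less Jun in KO, at 144 against 483 CPM in T cell-like and 239 against 776 CPM in B cell-like cells. They were not matched for Hspa1a, with 251 UMIs in 114 T cell-like cells of KO SC and 2816 in 135 of WT SC. The part of handling, stress or genotype in this was not tested, and with 1 library per group they cannot be told apart.

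In ASC-like cells the Jun levels with and without Hspa1a were 1484 and 545 CPM in WT SC, 1419 and 723 CPM in KO SC, 1785 and 751 CPM in WT IP, and 1074 and 901 CPM in KO IP. The share of ASC-like cells with a Hspa1a UMI was 45.7%, 54.8%, 66.1% and 50.5%, and its level was 182, 228, 309 and 87.7 CPM. Among ASC-like cells without it, Jun in KO over WT was at 0.26 (0.14 to 0.39) in IP, opposite in sign to the ratio over all ASC-like cells, and at 0.41 (0.19 to 0.62) in SC. Cells without a Hspa1a UMI include shallow cells in which it was missed.

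**Figure D3:**
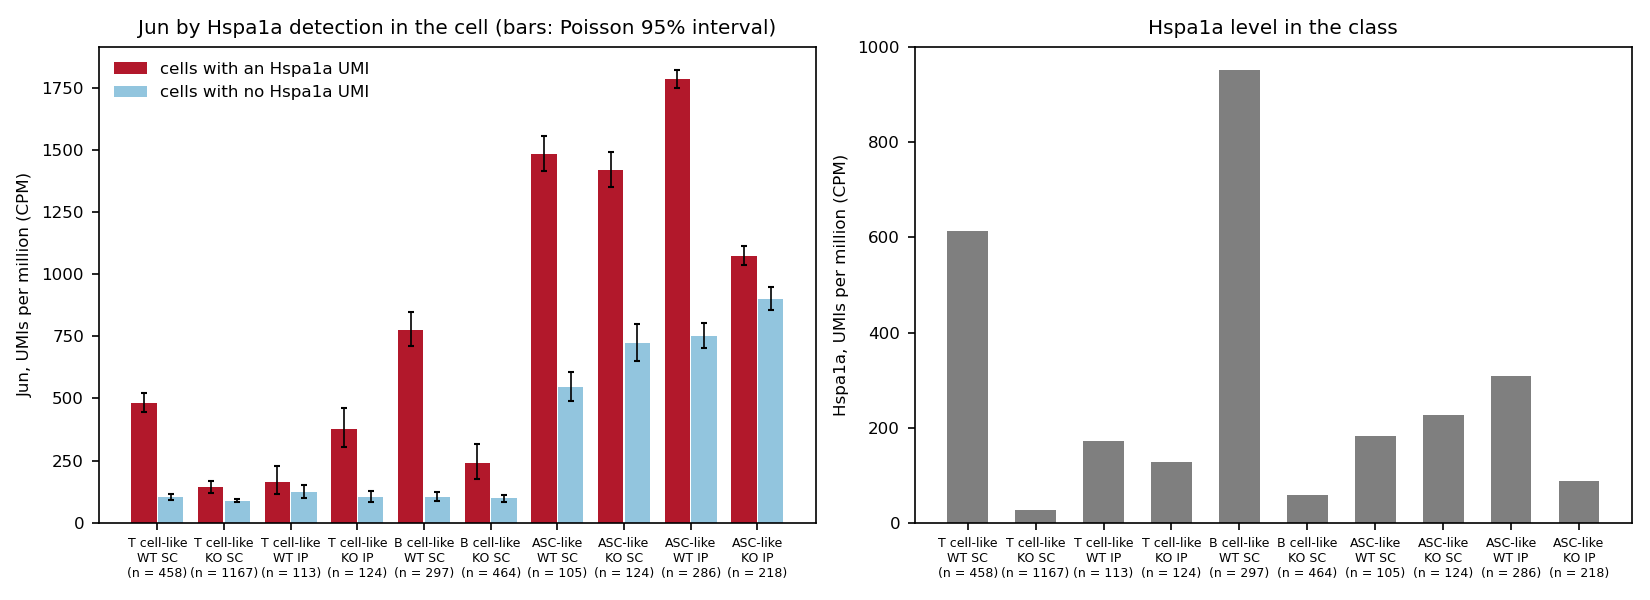
Jun level in CPM in cells with and without a Hspa1a UMI, by class and library, with exact Poisson 95% intervals, and the level of Hspa1a in the same classes. Jun is higher in cells with Hspa1a in every class and library shown, although the intervals overlap in T cell-like cells of WT IP, and Hspa1a stands highest in B cell-like (953 CPM) and T cell-like cells (613 CPM) of WT SC.

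T cell-like cells were then split by marker UMIs, since member levels differed within the class. In SC, naive-marked cells (at least 2 of 4 naive T cell markers, Lef1 and Ccr7 among them) numbered 308 in WT and 811 in KO, and effector-marked cells (at least 2 of S100a4, S100a6, Cd44 and Lgals1) 77 and 189. In IP the naive-marked cells numbered only 20 and 11 and the effector-marked 72 and 101. Atf3 was almost absent from naive-marked cells, with 4.25 CPM in WT SC and 2.28 in KO SC, against 96.6 and 96.1 CPM in effector-marked cells (log2 ratios 4.46, 3.62 to 5.52, and 5.35, 4.62 to 6.27). Fosb was at 101.7 and 98.2 CPM in naive-marked and at 275.5 and 334 CPM in effector-marked cells. Batf was at 47.1 and 37.5 CPM in naive-marked and at 161 and 95.4 CPM in effector-marked cells. Jund was at 714 and 485 CPM in naive-marked and at 1647 and 2232 CPM in effector-marked cells. Fos differed less (0.61 in WT SC and 0.70 in KO SC), and Jun was lower in the effector-marked cells of WT SC (-0.54, -0.82 to -0.29), while in KO SC its interval included no change (0.18, -0.10 to 0.43). The median over all genes was 0.21 in WT SC and 0.11 in KO SC. The effector markers were read from the same cells, and Cd44 is also among the AP-1 target genes listed later.

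Regulatory T cells, marked by a Foxp3 UMI, reached 48 cells in KO SC, and Batf, which these cells are known to use, was at 199 CPM in them against 46.8 in other CD4-marked cells (2.09, 1.67 to 2.51). The contrast was smaller in the 24 such cells of WT SC, with 137 CPM (99.3 to 183) against 86.7 (69.8 to 106). In SC, CD8-marked cells had more Fosl2 than CD4-marked cells (0.49 in WT and 0.34 in KO), less Jund (-0.27 and -0.53) and less Atf3 (-1.59 and -2.16). In WT IP Jund was also lower (-0.43, -0.68 to -0.18), Fosl2 had an interval that included no change (0.12, -0.39 to 0.67), and Atf3, with 8 UMIs in CD8-marked and 2 in CD4-marked cells, was too thinly counted for a ratio.

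Within subsets the lower Jun of KO SC was present in naive-marked cells (94.4 against 249 CPM, -1.40, -1.56 to -1.24) and in effector-marked cells (106 against 171 CPM, -0.68, -1.02 to -0.34), whereas effector-marked cells of IP had 182 CPM in KO and 181 in WT. Jund in KO over WT was at -0.56 in naive-marked cells of SC, at 0.44 (0.35 to 0.53) in effector-marked cells of SC and at -1.05 (-1.20 to -0.89) in those of IP, so its lower level in KO did not extend to every subset. Junb in effector-marked cells was at 3574 CPM in KO against 2215 in WT of SC, and at 2024 against 2744 CPM in IP. Batf was lower in KO in naive-marked (-0.33) and effector-marked cells of SC (-0.75). The higher Maff of KO SC lay in effector-marked cells (79.4 against 26.2 CPM, 1.57, 0.93 to 2.33), while naive-marked cells were at 0.16 (-0.32 to 0.67). In effector-marked cells of IP it was lower on 13 and 19 UMIs (-1.33, -2.49 to -0.26). Fosl2 was at 0.75 (0.50 to 0.999) in effector-marked and 0.22 (0.08 to 0.36) in naive-marked cells of SC. Fos in KO over WT was at -0.46 (-0.66 to -0.26) in CD4-marked and 0.15 (0.03 to 0.28) in CD8-marked cells of SC. Fosb was at -0.28 (-0.58 to 0.02) and 0.05 (-0.17 to 0.29) in the same subsets. Jun was lower in KO in both, at -1.75 (-2.06 to -1.45) and -1.04 (-1.23 to -0.84).

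**Figure D4:**
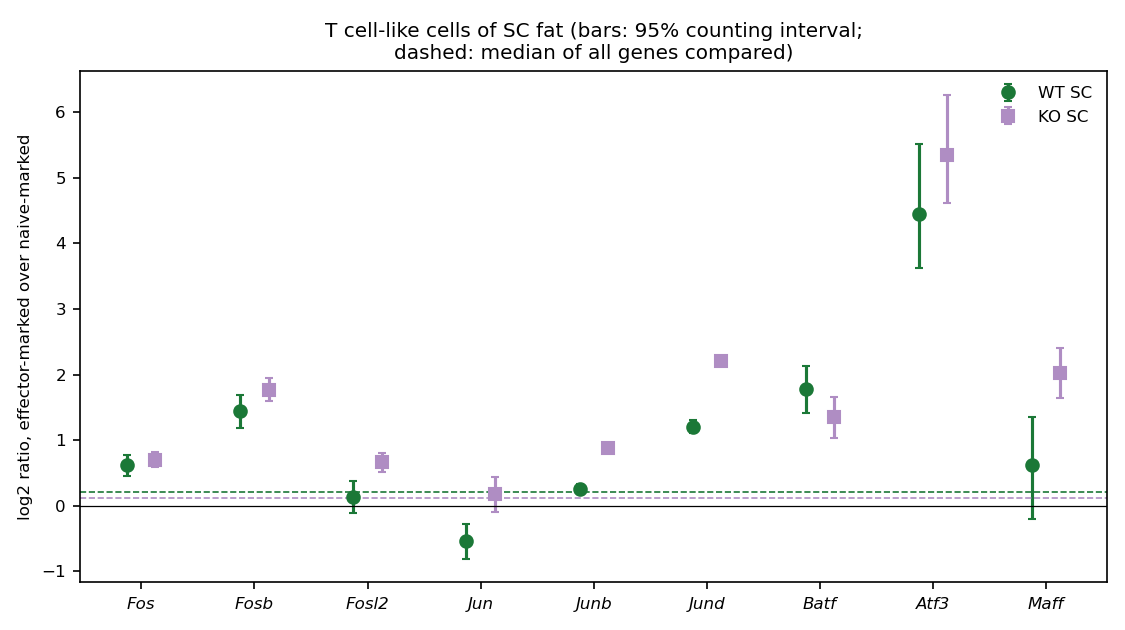
Log2 ratio of effector-marked over naive-marked T cell-like cells for 9 members in WT SC (green circles) and KO SC (purple squares), with 95% counting intervals and the median of all genes as dashed lines. Atf3 stands highest, Batf, Fosb and Jund lie well above 0 in both libraries, and Jun lies below 0 in WT SC.

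The depots were compared within a genotype in the same way, as IP over SC. Fosb of T cell-like cells was higher in IP in both genotypes, at 350.3 against 137 CPM in WT (1.36, 1.16 to 1.55) and 354 against 136 CPM in KO (1.38, 1.21 to 1.54). In WT, 2 of 9 members were higher past 1.5-fold, Fosb and Maff, and 1 was lower, Jun (-0.70, -0.98 to -0.43), where 29.4% of genes passed, 14.8% upward and 14.7% downward. In KO, 4 of 9 were higher, Fosb, Jun (0.79, 0.55 to 1.01), Batf (0.84, 0.51 to 1.14) and Atf3 (0.59, -0.08 to 1.16), and 1 was lower, Maff (-0.60, -1.35 to 0.01), where 44.4% passed, 34.3% upward and 10.1% downward. Jun therefore had opposite directions in the 2 genotypes, and WT SC was the library with the highest Jun. Batf in KO was at 0.06 among cells with at least 10000 UMIs, Maff in WT was at -0.72 with cells thinned to 3000 UMIs, and Jun came short of 1.5-fold in WT with thinning (-0.46) and in KO with median-of-ratios scaling (0.45). The mix of T cells differed between depots, as the subset counts above show. Among effector-marked cells Fosb was at 496 CPM in IP against 275.5 in SC of WT, and at 399.7 against 334 CPM in KO.

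In ASC-like cells Fosl1 and Fosl2 were lower in IP than in SC in both genotypes. Fosl1 was at 18.0 against 47.7 CPM in WT (-1.41, -1.82 to -0.98) and 12.5 against 62.4 CPM in KO (-2.32, -2.82 to -1.84), and Fosl2 was at 122 against 195 CPM in WT (-0.68, -0.86 to -0.49) and 143 against 259.9 CPM in KO (-0.86, -1.04 to -0.68). In WT, these were the 2 of 10 members lower past 1.5-fold, and Batf was the 1 higher, with 26 UMIs against 1 (2.41, 0.36 to 8.33), where 33.2% of genes passed, 19.8% upward and 13.4% downward. Jun was higher in IP of WT (0.47, 0.40 to 0.53), and Fos, Junb and Atf3 were within 0.06 of no change. In KO, 7 of 9 members were lower past 1.5-fold and none was higher, where 33.9% passed, 21.3% upward and 12.6% downward. The largest after Fosl1 were Atf3 (-1.30, -1.43 to -1.17) and Maff (-1.28, -1.56 to -0.99), followed by Fosl2, Junb at -0.77 and Fos at -0.67. The member median was -0.13 in WT and -0.77 in KO, beside 0.09 and 0.10 for all genes. In WT, Fosl1 was at -0.24 with cells thinned to 3000 UMIs and Fosl2 at -0.22 with cells weighted equally, both short of 1.5-fold, and in KO Fosl2 was at -0.52 with thinning.

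**Figure D5:**
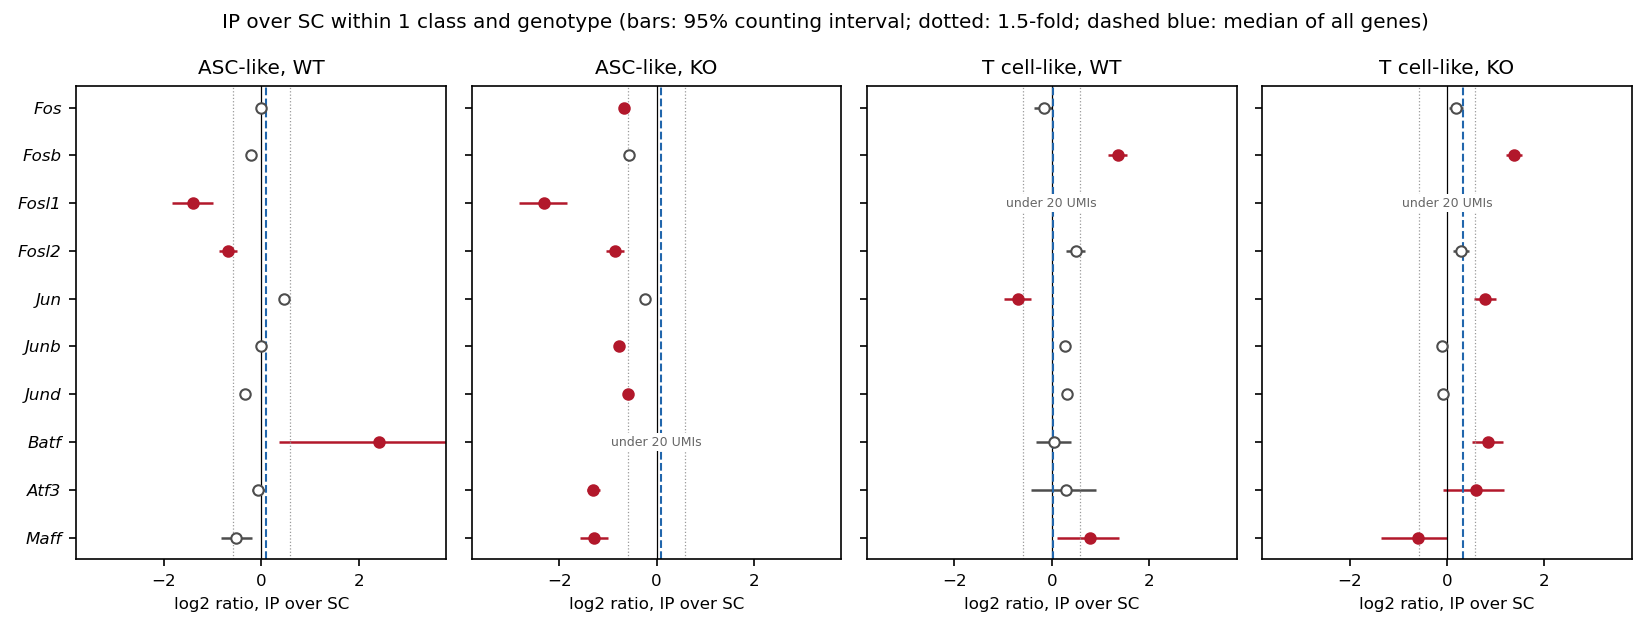
Log2 ratio of IP over SC for each member in T cell-like and ASC-like cells of WT and KO, with 95% counting intervals and the same colours and lines as for the genotype plot. Fosb lies to the right in T cell-like cells of both genotypes, Fosl1 and Fosl2 lie to the left in ASC-like cells of both, and the interval of Batf in ASC-like cells of WT runs past the axis to 8.33.

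Other genes of the pathway came from 6 lists, and those named beyond the 3 genes with most UMIs in each list were picked for passing 1.5-fold, after their values had been seen. Over all genes, 9.53% were higher in KO and 8.81% lower past 1.5-fold in ASC-like cells of SC, and 9.94% and 6.7% in IP. For T cell-like cells these shares were 4.55% and 14.2% in SC, and 19.4% and 6.92% in IP. For B cell-like cells of SC they were 5.51% and 10.1%. Of 28 other immediate early genes compared in ASC-like cells of SC, 8 were higher in KO and 1 was lower (list median 0.42, all genes 0.02). Among them Egr1, a zinc finger factor, was at 1608 against 983 CPM (0.71, 0.62 to 0.80), Klf4, a Krüppel-like factor, at 3148 against 1971 CPM (0.68, 0.61 to 0.74), and Nfkbia, the inhibitor of NF-κB, at 909 against 535 CPM (0.76, 0.65 to 0.88), while Ccn2, a matricellular gene, was at 57.5 against 119 CPM (-1.05). In ASC-like cells of IP, 1 was higher, the nuclear receptor gene Nr4a2 (1.16, 0.89 to 1.44), and 3 were lower, Dusp5, Socs3 and Gadd45b (list median -0.04), and Klf4 was at 0.02 (-0.04 to 0.07). Among T cell-like cells of SC 0 of 28 were higher and 2 lower (Ier3 and Myc), a smaller share than the 14.2% of all genes. In those of IP 0 of 27 were higher and 5 lower (Nr4a2, Nr4a3, Dusp2, Klf2 and Socs3). For B cell-like cells of SC 4 of 26 were higher and 2 lower, the lower ones being Klf2 and Rhob. Btg1 was at 0.06 in T cell-like cells of SC and within 0.05 of no change in ASC-like cells of both depots.

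Of genes known as AP-1 targets, more were lower than higher in KO stroma of both depots. In ASC-like cells of SC 3 of 16 were higher and 6 lower (median -0.34, all genes 0.02), where 8.81% of all genes were lower. In those of IP 1 of 17 was higher and 7 lower (median -0.39, all genes 0.06), where 6.7% of all genes were lower. The summed level of the list went the other way in SC, with 7673 CPM in KO and 7046 in WT, and was 7570.2 and 10136 CPM in IP. Timp1, the metalloproteinase inhibitor, was at 24.5 CPM in KO and 146 in WT in SC (-2.56, -3.09 to -2.09), and at 349 and 1167 CPM in IP (-1.74, -1.82 to -1.66). Tnc, a matrix glycoprotein, had 0 UMIs in KO against 49 in WT of SC, and 71 against 443 UMIs in IP. Hmox1, the haem-degrading enzyme that is also a target of Nfe2l2, was higher in KO in both depots (1.19, 0.83 to 1.57, and 1.27, 1.13 to 1.41). The metallothionein genes Mt1 (0.72) and Mt2 (0.71) were higher in SC and lower in IP (-0.44 and -0.39), as Fos was. Vim, an intermediate filament gene, was at -0.13 and -0.23 in ASC-like cells and at -1.09 (-1.17 to -1.001) in T cell-like cells of SC. In T cell-like cells of IP it was higher in KO (0.43, 0.29 to 0.57). T cell-like cells had fewer targets to compare, of which 1 of 6 was higher and 3 lower in SC, and 1 of 5 was higher and 0 lower in IP, and in B cell-like cells 0 of 4 passed. The lists do not say which of these genes AP-1 acts on in these cells.

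Of the heat shock genes in lymphocytes of KO SC, 4 of 15 in T cell-like and 6 of 13 in B cell-like cells were lower past 1.5-fold and none was higher, where 14.2% and 10.1% of all genes were lower. The list median was -0.22 in T cell-like cells, near the -0.14 of all genes, and -0.50 in B cell-like cells beside -0.07. The lower genes were led by Hspa1a (-4.54, -4.74 to -4.36, and -4.00, -4.26 to -3.76). The abundant Hsp90ab1 was at -0.15 and -0.33 and the constitutive Hspa8 at -0.09 and -0.20, whereas Hspa5, an endoplasmic reticulum chaperone, was at 0.40 and 0.15. Among T cell-like cells of IP 2 of 14 were higher and 1 lower (median 0.01), in ASC-like cells of SC 2 of 15 were higher and 0 lower (0.25), and in those of IP 1 was higher and 1 lower (0.09).

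Of the other bZIP relatives in T cell-like cells of SC, 3 of 19 were higher and 1 was lower, where 4.55% and 14.2% of all genes were. Crem, a cAMP-responsive factor, was at 420.4 against 224 CPM (0.91, 0.81 to 1.01). The abundant Bach2, a lymphocyte repressor, was at 0.20 and Cebpb at 0.50. In T cell-like cells of IP 2 of 16 were higher and 0 lower, in B cell-like cells 1 of 14 was higher and 1 lower, in ASC-like cells of SC 2 of 19 were higher and 0 lower (Mafg and Atf1), and in those of IP 0 of 20 were higher and 1 lower. Cebpb in ASC-like cells was at 0.43 in SC and 0.05 in IP.

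Upstream kinases and serum response factors, which are known to switch on Fos, mostly did not pass. In ASC-like cells 1 of 24 was higher and 0 lower in each depot (Mapk9, a Jun kinase, in SC and Mapk7 in IP). In T cell-like cells of SC 1 of 25 was higher and 3 lower. In those of IP 4 of 22 were higher and 0 lower, among them Rps6ka3 (0.67, 0.43 to 0.92). That count lay near the 19.4% of all genes that were higher there (list median 0.16, all genes 0.14). In B cell-like cells 0 of 23 were higher and 3 lower. Braf was at 0.43 in T cell-like cells of SC. Genes of AP-1 turnover and repression gave 0 of 15 in T cell-like cells of SC, 2 higher and 1 lower of 15 in those of IP, 1 higher and 2 lower of 15 in B cell-like cells, 1 higher of 14 in ASC-like cells of SC and 0 of 14 in those of IP. Zfp36l1, which promotes mRNA decay, was at 0.38 and 0.27 in ASC-like cells of SC and IP, Zfp36l2 at 0.36 and -0.03, and Ncor1, a corepressor, at 0.02 and 0.29.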

How the data were processed

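Droplet 3′ libraries (10x Genomics v3) of adipose tissue cells were sequenced from 4 groups, 1 library each. The authors deposited unnormalised UMI counts for each gene in each barcode, and the file headers name Cell Ranger 7.0.0. The submitters' processing notes also name STAR 2.6 and mm10. The use of intronic reads and strand is not given in the sources used here.

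Barcodes were left out below 200 genes or above 25% mitochondrial UMIs, and 17 doublets called by Scrublet (scanpy 1.11.5, expected rate 5%) were removed. That is 0.421% of the barcodes filtered, so the caller found few. A barcode present in 2 libraries was kept in the deeper one. The 4 libraries had 11222693, 15533961, 13143692 and 10015201 UMIs (WT SC, KO SC, WT IP, KO IP). Each cell was assigned to the class of which it showed most of 8 markers, if at least 2. It was set aside as having 2 classes (214 cells) where the next class had at least 2 markers and over 0.5 times that share, and 94 cells had no class. Counts were summed per class and library, scaled to CPM and compared as ratios for genes with at least 20 UMIs in the pair, with exact Poisson, Clopper-Pearson and conditional binomial intervals. The ratio calculation was tested on simulated data.

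Named genes were the 10 members, the 3 genes with most UMIs of each of 6 lists (other immediate early, AP-1 target, heat shock, other bZIP relatives, upstream signalling, turnover and repression), and the 3 genes most like Fos, Jun, Junb, Jund and Atf3 over class sums, among genes with at least 500 UMIs. A few items that fall under these rules are not reported here. Members and lists were chosen with earlier results of these data known. Gene positions came from GENCODE for GRCm38, where 32158 features matched by identifier. The software was pandas 2.3.3, scipy 1.17.1, numpy 2.4.6 and matplotlib 3.10.9 in Python 3.11.15. Alternatives covered scaling, weighting, thinning to 3000 UMIs, count and cell filters, doublets, marker number, 2-class cells and the fold, and a further pair, shared barcodes kept and cells with at least 10000 UMIs, was chosen after seeing the data.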

Additional observations from a re-analysis of the deposited data

Results flagged for a closer look

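A few members had KO over WT log2 ratios of opposite sign in the 2 depots, each beyond its counting interval. The difference between depots was not tested, since each group was 1 library. In ASC-like cells Fos was at 0.30 in SC and -0.37 in IP, Junb at 0.30 and -0.45, and Atf3 at 0.77 and -0.46. In T cell-like cells Junb was at 0.22 in SC and -0.17 in IP, and these became 0.02 in SC among cells with at least 10000 UMIs and 0.04 in IP with cells thinned to 3000 UMIs. The part of mouse, dissection or genotype cannot be told apart here.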

How the results depend on the processing

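Of 84 member ratios, recomputed 1149 times under the alternatives, 43 values had the other sign. For the 58 ratios beyond counting error it was 11 of 800, and for the 27 that also passed 1.5-fold it was 1 of 368, Maff in T cell-like cells of WT (IP over SC), which reversed from 0.78 to -0.72 with cells thinned to 3000 UMIs. The 12 members past 1.5-fold in KO over WT became 4 at 2-fold, and the 18 in IP over SC became 7. The ASC-like member median in SC (KO over WT) moved from 0.30 to 0.64 with cells weighted equally and 0.39 with thinning, that in IP from -0.46 to -0.52 with median-of-ratios scaling, and that of T cell-like cells in SC from -0.13 to -0.26 among cells with at least 10000 UMIs. For IP over SC, ASC-like cells of WT moved from -0.13 to 0.17 with equal weights, and those of KO from -0.77 to -0.86 with median-of-ratios scaling, -0.89 with equal weights, -0.86 at 10000 UMIs and -0.89 with thinning. T cell-like cells of KO moved from 0.29 to -0.05 with median-of-ratios scaling and 0.03 without mitochondrial, ribosomal, immunoglobulin and haemoglobin genes, and those of WT from 0.29 to 0.46 with equal weights and -0.27 at 10000 UMIs. With equal weights the summed level of the members became 6015, 8228, 6872 and 4788 CPM in ASC-like cells (WT SC, KO SC, WT IP, KO IP), 4114, 4042, 5059 and 4691 in T cell-like cells, 3737 and 3201 in B cell-like cells of WT SC and KO SC, and 4336 in NK cell-like cells of WT IP. The cause of these moves was not tested. B cell-like cells with at least 10000 UMIs were too few for a value. No paired analysis was possible because each group was 1 library and the labels carry no replicate numbers. Depth limits Batf in ASC-like cells, Fosl1 in lymphocytes and all EC-like values.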

Other observations

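EC-like cells, too few for a ratio, held Fos at 522 UMIs, Jun at 573, Junb at 596 and Atf3 at 220 of 280102 UMIs in the 16 cells of WT IP, and Fos at 449, Jun at 164, Junb at 142 and Atf3 at 135 of 81436 UMIs in the 5 cells of KO IP. Cells with markers of both dendritic cells and macrophages had 423 CPM of Atf3 (346 to 512) in WT IP (14 cells) and 1274 CPM (1042 to 1543) in KO IP (5 cells). Cells with markers of both NK and T cells had Fos levels of 939, 523, 192 and 372 CPM in WT SC, KO SC, WT IP and KO IP, from 14, 18, 31 and 13 cells.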
